A study of Mus musculus with 2 samples.

Results

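The cluster of miR-221 and miR-222 comprises a pair of neighbouring microRNAs (miRs), each cut from its own hairpin as a 5p and a 3p arm. Its members were found by name among the mature miRs counted in sperm, and all 4 arms of the 2 hairpins were listed, out of 1886 entries in all. The counts came from small RNA-seq of sperm of naive WT mice (strain C57BL/6J, 3 months of age), in 2 libraries described as independent biological replicates. Sperm had been released from the epididymis and treated with a hypotonic buffer containing detergents to remove cells of the surrounding tissue. No other genotype, treatment or age was analysed here, so the comparisons below lie within and between these libraries and carry no test between conditions. The deposited counts carry POSTTREAT in their names whereas the labels call the mice naive, and this mismatch was not resolved.

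miR-221 and miR-222 are encoded next to each other on the X chromosome and are transcribed together as a common precursor, from which the hairpins are cut. Either strand of a hairpin can be loaded into the silencing complex, and the loaded strand finds its targets mainly through the seed near its 5′ end. The 3p arms share their seed and are best known for repressing Kit, a receptor tyrosine kinase, and Cdkn1b, which encodes the cell-cycle inhibitor p27. In the mouse testis they are known from undifferentiated spermatogonia, in which KIT is kept low, and in other tissues they are known from endothelium and vascular smooth muscle.

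The RefSeq sequences (build GRCm38.p6) of the mature arms are shown first, because the shared seed is what makes miR-221 and miR-222 a family. They are written 5′ to 3′ with the seed (bases 2 to 8) in capitals. miR-1928 is included as the only other listed miR with this seed among the 1608 of 1886 entries that had a RefSeq sequence. Its locus lies on chromosome 1, at chr1:74206562-74206578 on the minus strand.
miR-221-3p: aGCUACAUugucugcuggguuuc
miR-222-3p: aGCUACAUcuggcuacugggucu
miR-1928: aGCUACAUugccagcuc
miR-221-5p: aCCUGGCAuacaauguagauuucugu
The 3p arms of miR-221 and miR-222 had the same first 8 bases and the same base at 11 of 23 positions when aligned from the 5′ end. The longest run of bases they had in common anywhere was 8. The longest run shared with any other listed miR was 10 bases for miR-221-3p, 9 bases for miR-222-3p and 8 bases for miR-221-5p. Reads under 15 bases had been discarded and the first mapping step allowed no mismatch. No other listed miR with a sequence shared 15 bases with any of these arms. The seed of miR-221-5p was found in no other listed miR. miR-222-5p was matched by name only.

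In the annotation of GRCm38 both hairpins lie on the minus strand of chromosome X. Mir222 (ENSMUSG00000065471.1) spans chrX:19146893-19146971 and Mir221 (ENSMUSG00000065422.1) spans chrX:19146294-19146388, with 504 bases between them, so that miR-222 comes first in the direction of transcription. In GENCODE M21 no gene other than the hairpins overlapped this interval. The nearest gene upstream was Gm14636, a processed transcript on the same strand, whose annotated start lies 20269 bases and whose end lies 10009 bases upstream of Mir222. The nearest on the other side was the processed pseudogene Gm5383, at a distance of 203065 bases. The hairpins are shown with the annotated arms in capitals, to place the arms whose reads are compared below.
Mir221: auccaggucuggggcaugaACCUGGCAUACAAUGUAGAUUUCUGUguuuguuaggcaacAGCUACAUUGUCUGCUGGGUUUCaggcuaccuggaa
Mir222: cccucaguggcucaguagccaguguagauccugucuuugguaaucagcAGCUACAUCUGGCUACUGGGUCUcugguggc
The mature arms lie at chrX:19146307-19146329 (miR-221-3p), chrX:19146344-19146369 (miR-221-5p) and chrX:19146901-19146923 (miR-222-3p).

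The depth was 4049599 miR reads for replicate 1 against 5648067 for replicate 2. Levels are given as CPM, the reads of a miR per 1000000 miR reads of its library. A count of 3 reads corresponded to 0.741 CPM in replicate 1 and 0.531 CPM in replicate 2, which is taken as the floor of the depth. Intervals are Wilson 95% intervals and cover counting error only, since the reads carry no molecular identifiers. How evenly different sequences were captured in the libraries was not measured, so levels, ranks, 3p shares and ratios between miRs describe reads. Of the late germ cell miRs chosen as markers (both arms of miR-34b and miR-34c, and miR-449a-5p), 5 of 5 were read in both libraries. Of all listed miRs, 20.0% were. The choice left out miR-449a-3p, which took 0% of the 1170 and 599 reads of its hairpin. The 5 chosen entries summed to 3898 CPM in replicate 1 against 1640 CPM in replicate 2. Markers of other cells were also present, and their values stand beside the results they bear on. In bulk RNA of this kind, fewer cells of a type and less RNA per cell cannot be told apart.

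All 4 arms of the cluster were detected in sperm, and miR-221-3p carried most of the reads. With a read in both libraries as the rule, 4 of 4 arms passed, where 20.0% of all listed miRs did. With at least 10 reads in each library, 3 of 4 arms passed, where 12.9% of all listed miRs did. The summed level of the arms was 80.5 CPM in replicate 1 (326 reads, interval 72.2 to 89.7). It was 87.3 CPM in replicate 2 (493 reads, 79.9 to 95.3), which gives 83.9 ± 4.80 CPM (SD, n = 2 libraries). As a share of all miR reads this was 0.00805% in replicate 1 and 0.00873% in replicate 2.

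miR-221-3p, the arm with the family seed that is usually taken as the functional strand, had 256 reads in replicate 1, or 63.2 CPM (55.9 to 71.4). In replicate 2 it had 390 reads, or 69.1 CPM (62.5 to 76.3). The intervals of the libraries overlapped, and the mean was 66.1 ± 4.13 CPM (SD, n = 2). It ranked 94th by mean CPM among the 378 miRs read in each library, above 75.1% of them. It made up 78.5% of the reads of the cluster in replicate 1 and 79.1% in replicate 2.

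miR-222-3p, which carries the same seed, had 24 reads in replicate 1, or 5.93 CPM (3.98 to 8.82). In replicate 2 it had 46 reads, or 8.14 CPM (6.11 to 10.9). Its mean was 7.04 ± 1.57 CPM (SD, n = 2) and its rank 188th, close to the middle of the detected miRs, whose median was 7.02 CPM. miR-1928, the other bearer of the seed, had 0 reads in each library. Among the entries with a sequence, counts of miRs annotated with this seed therefore came from miR-221-3p and miR-222-3p alone. miR-221-3p made up 91.4% of these counts in replicate 1 (87.6% to 94.2%) and 89.4% in replicate 2 (86.2% to 92.0%). The counts are per name, so the 5′ ends of single reads were not seen.

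The 5p arms, which are usually regarded as passenger strands, were lower than the 3p arm of their own hairpin in each library. miR-221-5p had 43 reads, or 10.6 CPM (7.88 to 14.3), in replicate 1 and 52 reads, or 9.21 CPM (7.02 to 12.1), in replicate 2. Its mean was 9.91 ± 0.998 CPM (SD, n = 2) and its rank 168th. miR-222-5p had 3 reads, or 0.741 CPM (0.252 to 2.18), in replicate 1 and 5 reads, or 0.885 CPM (0.378 to 2.07), in replicate 2, at and slightly above the floor of the depth. It ranked 337th of 378.

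The order of the levels was miR-221-3p, miR-221-5p, miR-222-3p and miR-222-5p in each library. miR-221-3p exceeded miR-221-5p 5.95 times in replicate 1 and 7.50 times in replicate 2, and miR-222-3p exceeded miR-222-5p 8 and 9.2 times. The middle of the order was less certain. miR-221-5p made up 64.2% of the reads of miR-221-5p and miR-222-3p together in replicate 1 (52.2% to 74.6%) and 53.1% in replicate 2 (43.3% to 62.6%), so that in replicate 2 they did not differ beyond counting error.

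**Figure D1:**
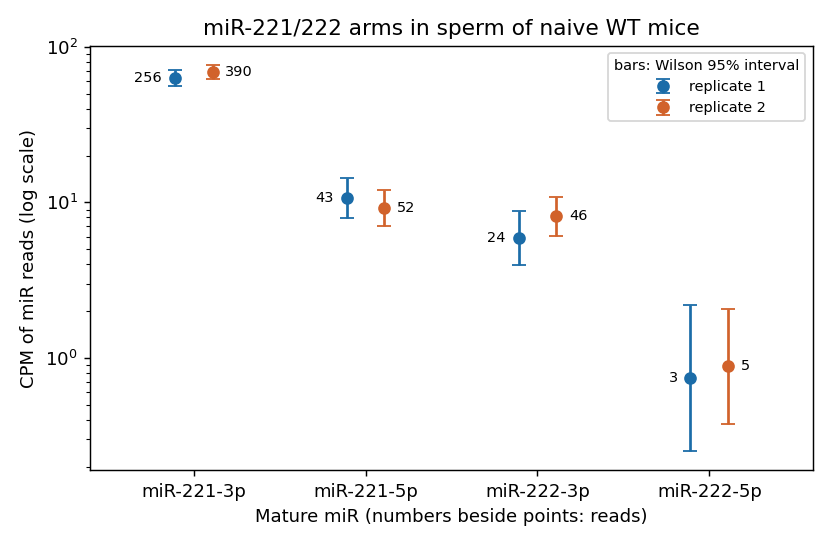
CPM of miR reads on a log axis for the 4 arms in replicate 1 (blue) and replicate 2 (orange), with Wilson 95% intervals as bars and the read counts beside the points. miR-221-3p lies at 63.2 and 69.1 CPM, miR-221-5p and miR-222-3p lie close together between 5.93 and 10.6 CPM, and miR-222-5p rests on 3 and 5 reads.

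Both hairpins gave their reads mainly from the 3p arm. The 3p arm took 85.6% of the miR-221 reads in replicate 1 (interval 81.2% to 89.1%, from 299 reads). In replicate 2 it took 88.2% (84.9% to 90.9%, from 442 reads), with a mean of 86.9% ± 1.85 (SD, n = 2). For miR-222 it took 88.9% (71.9% to 96.1%, from 27 reads) in replicate 1. In replicate 2 it took 90.2% (79.0% to 95.7%, from 51 reads), with a mean of 89.5% ± 0.924 (SD, n = 2). The intervals of the hairpins overlapped in each library. These shares are formed within a library and do not depend on the scaling between libraries.

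Set against other hairpins, the 5p arm of miR-221 took a comparatively large share. Of 139 hairpin names with both arms listed and at least 20 reads in each library, 63 had their reads mainly on the 3p arm and 76 mainly on the 5p arm. The rarer arm had a median share of 0.621% over all 139 names. It had 13.1% for miR-221 and 10.5% for miR-222, and 24 names had a larger rarer-arm share than miR-221 and 26 a larger one than miR-222. Many of the 139 names had 0 reads on the rarer arm in both libraries, among them miR-143, with 165421 and 349579 reads in all. Whether such arms could be counted at all was not tested. Such names lower the median rarer-arm share and, where the 3p arm leads, raise the median 3p share. Among the 63 names with a leading 3p arm, the median 3p share was 99.2%, and 12 of them had a lower 3p share than miR-221. Between the libraries the 3p share moved by 2.62 percentage points for miR-221 and by 1.31 for miR-222, where the median over all names was 0.278 points and 38 names moved further than miR-221. Most names lie near either end of the scale, where a share has little room to move. The Wilson intervals of miR-221, and those of miR-222, overlapped between the libraries. These values describe the libraries, and no test was attached to them.

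**Figure D2:**
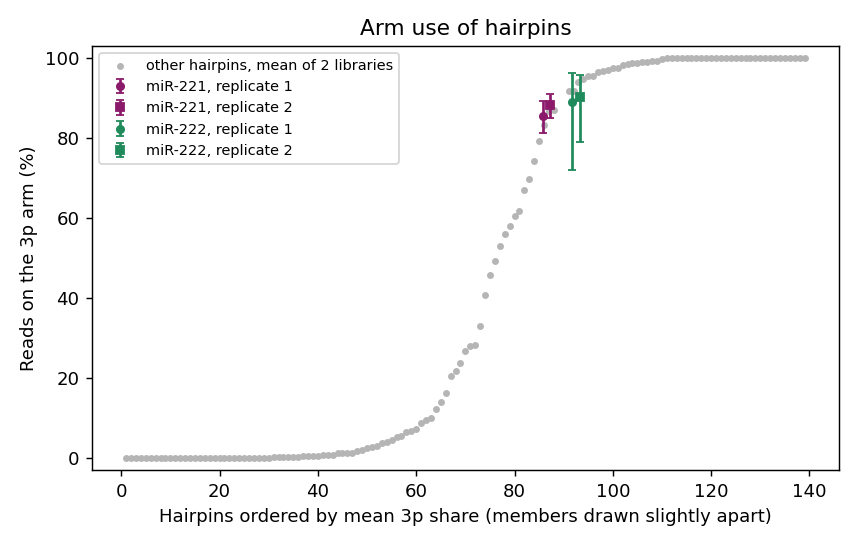
Percent of reads on the 3p arm for 139 hairpin names with at least 20 reads in each library, ordered by their mean over both libraries (grey), with miR-221 (purple) and miR-222 (green) drawn per library with Wilson 95% intervals. Most names lie near 0% or 100%, and miR-221 at 85.6% and 88.2% and miR-222 at 88.9% and 90.2% sit on the shoulder of the curve.

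Although the hairpins share a precursor, miR-221-3p had about an order of magnitude more reads than miR-222-3p. The ratio of their reads was 10.7 in replicate 1 (7.04 to 16.2) and 8.48 in replicate 2 (6.25 to 11.5), with a mean of 9.57 ± 1.55 (SD, n = 2). With the arms of each hairpin summed the ratio was 11.1 and 8.67, and for the 5p arms, which rest on few reads of miR-222-5p, it was 14.3 (4.71 to 43.6) and 10.4 (4.28 to 25.3). Between the replicates the ratio of the 3p arms moved by -0.33 on the log2 scale (95% counting interval -1.08 to 0.42), and this interval includes 0.

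Unequal read counts of neighbouring hairpins were also seen at other loci. Of 18 other pairs of neighbouring hairpins, 17 had at least 10 reads on both miRs in each library, and 12 of these had a larger mean ratio than miR-221-3p to miR-222-3p and 5 a smaller one. Their median ratio was 14.8. The pairs were listed from general knowledge, and some of these miRs also have copies at other loci. The ratio of miR-182-5p to miR-183-5p, from a cluster known from sensory cells, was 10.27 in replicate 1 and 10.04 in replicate 2. The ratio of miR-143-3p to miR-145a-5p, from a cluster of smooth muscle, was 352 and 305. That of miR-27a-3p to miR-23a-3p was 1.08 and 1.62. The change of the ratio between the libraries ranged from 0.03 to 0.73 on the log2 scale over the 17 pairs, with a median of 0.30, and the change of 0.33 for miR-221-3p and miR-222-3p was larger than 10 of them and smaller than 7.

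**Figure D3:**
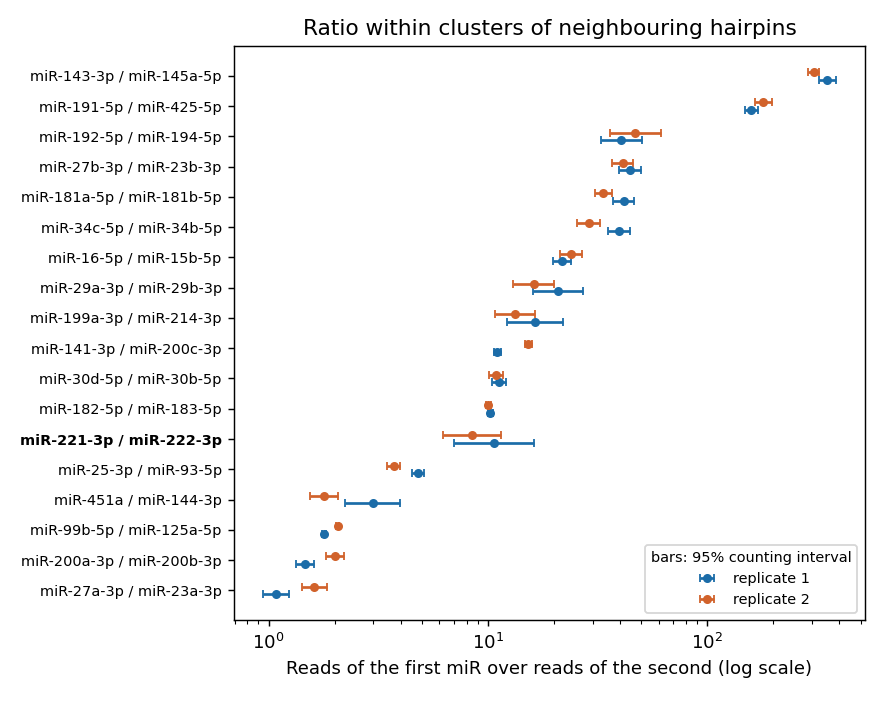
Ratio of the reads of the more frequent miR to those of the less frequent one on a log axis, for miR-221-3p and miR-222-3p (bold) and 17 other pairs of neighbouring hairpins, in replicate 1 (blue) and replicate 2 (orange), with 95% counting intervals as bars. The ratios run from 1.08 to 352, and miR-221-3p to miR-222-3p lies at 10.7 and 8.48 with wide intervals, because miR-222-3p had 24 and 46 reads.

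How far the members differed between the replicates depended on the scaling. With totals of miR reads, the log2 ratio of replicate 2 to replicate 1 was 0.13 for miR-221-3p (95% counting interval -0.10 to 0.35), -0.21 for miR-221-5p (-0.79 to 0.38), 0.46 for miR-222-3p (-0.25 to 1.17) and 0.26 for miR-222-5p (-1.81 to 2.32), and each of these intervals includes 0. The interval of miR-221-3p lay above 0 under each of the other scalings, with values of 0.48 with TMM (0.25 to 0.71) and 0.41 with the size factors of DESeq2 (0.18 to 0.64). That of miR-222-3p lay above 0 with TMM (0.81, 0.10 to 1.52) and with the size factors (0.74, 0.03 to 1.45). Counting intervals leave out the variation between mice, so none of this is a test. Of the 3 arms that were read in each library and summed to at least 10 reads, 0 lay past 2-fold, under this scaling or any of the 4 others tried. Over all miRs that met this minimum, 30.8% lay past 2-fold (98 of 318). With 3 arms, a count of 0 is not a result about the cluster.

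miR-221-3p, miR-222-3p and miR-222-5p were higher in replicate 2 under each scaling tried, and the direction of miR-221-5p depended on it. The median log2 ratio over the 318 miRs was -0.28 with totals of miR reads, 0.07 with TMM and 0.00 with the size factors of DESeq2. Relative to that median, as the size factors give it, the log2 ratio was 0.41 for miR-221-3p, 0.08 for miR-221-5p, 0.74 for miR-222-3p and 0.54 for miR-222-5p. miR-221-5p, at -0.21 with totals, was therefore above 0 with TMM (0.14) and with the size factors. The share of miRs past 2-fold was 25.2% with TMM and 26.7% with the size factors.

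At like abundance, miR-221-3p was among the steadier miRs when totals were used. Of 49 other miRs within 2-fold of its mean level, 44 differed more between the libraries and 5 differed less. With the size factors 30 differed more and 19 less, so its place depended on the scaling. In signed terms, 35 of the 49 had a lower log2 ratio than miR-221-3p, an order that the scaling cannot change. The same held for 43 of 73 miRs of like abundance for miR-221-5p, 72 of 79 for miR-222-3p and 23 of 38 for miR-222-5p. The miRs compared summed to at least 10 reads, a minimum that miR-222-5p, with 8 reads, did not meet. With totals, the 38 around it had a median log2 ratio of 0.02, against -0.28 over all 318 miRs, so its place among them means little.

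**Figure D4:**
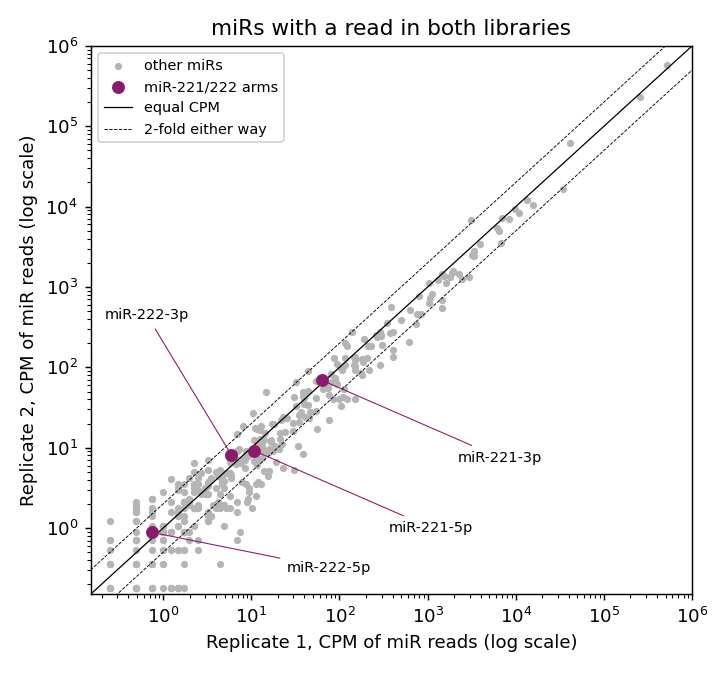
CPM of miR reads in replicate 1 against replicate 2, both on log axes, for the 378 miRs read in each library (grey), with the 4 arms of the cluster in purple, the line of equal CPM and dashed lines at a 2-fold difference. The 4 arms lie within the dashed lines, and the other miRs spread wider at low CPM.

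The miRs whose levels in both libraries were nearest to miR-221-3p were miR-26b-5p, miR-210-3p, miR-497a-5p, miR-23b-3p and miR-541-5p. Nearness was the Euclidean distance of log2(CPM + 1) over the 2 libraries, which was 0.07 for miR-26b-5p and 0.27 for miR-541-5p. miR-26b-5p had 61.0 CPM in replicate 1 and 71.2 in replicate 2, and miR-210-3p, a miR known to rise in hypoxia, had 60.0 and 72.2 CPM. With 2 libraries such nearness reflects a like level and little else.

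On the X chromosome, miR-221-3p was the 6th most frequent miR by mean CPM, the 7th in replicate 1 and the 4th in replicate 2. Of 136 entries whose annotated copies all lie on X, 40 had a read in both libraries (29.4%), against 19.2% of the entries annotated elsewhere or with copies elsewhere too. miR-221-5p ranked 15th and miR-222-3p 21st of the 40 by mean CPM. The 3 most frequent by mean CPM were miR-470-5p, a testis miR with 1461 CPM in replicate 1 and 549.7 in replicate 2, miR-98-5p of the let-7 family with 229 and 187 CPM, and miR-351-5p with 87.4 and 130 CPM. X-linked miRs summed to 2460 CPM in replicate 1 and to 1267 CPM in replicate 2. The annotated arms of the cluster took 3.24% of these reads in replicate 1 and 6.82% in replicate 2. This share depends on the levels of the other X-linked miRs. Among them miR-470-5p led the X-linked total and was lower in replicate 2, as were others. With totals of miR reads, 8 of the 29 other X-linked miRs that met the same minimum of 10 reads were higher in replicate 2. The median log2 ratio of the 29 was -0.38. With the same totals the median over all 318 miRs, X-linked ones included, was -0.28. How many of the 318 were higher in replicate 2 was not counted, and no other chromosome was looked at on its own.

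The levels of the cluster were read beside markers of the cells in which it is known. For undifferentiated spermatogonia, a list of 19 other miRs had 14 with a read in both libraries, where 20.0% of all listed miRs did. The median level of these 14 was 55.7 CPM, against 7.02 CPM over all detected miRs, and 7 of the 19 were above miR-221-3p. Over all 19 the median was 16.7 CPM, against 0 CPM over all listed miRs. miR-182-5p was the most frequent of them, with 13569 and 12241 CPM. miR-106a-5p, miR-290a-5p, miR-291a-3p, miR-302a-3p and miR-544-3p had 0 reads in each library, which allows up to the floor of 0.741 and 0.531 CPM. The median log2 ratio of the 14 was -0.44 with totals, where 2 of them were higher in replicate 2, and -0.16 with the size factors. The list was written from general knowledge, with earlier results of these data known, and several of its miRs are also frequent in somatic cells.

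Markers of endothelium, in which miR-221 and miR-222 are well known, were read beside the cluster. The paper gives the hypotonic buffer the aim of removing epithelial cells and of disrupting endothelial cells. Epithelial markers are given further below. Of 4 entries of the miR-126 hairpins, 1 had a read in both libraries, where 20.0% of all listed miRs did. This was miR-126a-3p, known as a miR of endothelium, with 325 reads or 80.3 CPM in replicate 1 and 466 reads or 82.5 CPM in replicate 2. Its log2 ratio was 0.04 with totals and 0.32 with the size factors. miR-126a-5p and miR-126b-3p had 0 reads, and whether these arms could be counted at all was not tested.

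The summed levels of smooth muscle and stromal markers and of blood markers were higher in replicate 2, and those of epithelium and late germ cells were lower. The smooth muscle and stromal list had 6 of 7 entries in both libraries and a summed level of 41327 CPM in replicate 1 and 62571 CPM in replicate 2, nearly all of it from miR-143-3p, while miR-143-5p had 0 reads. The 6 of 6 blood miRs summed to 3276 and 7154 CPM, led by the joined entry of miR-486b-5p and miR-486a-5p. The 5 of 5 epithelial miRs summed to 10608 and 8525 CPM. Sertoli cell miR-202 was near the floor, with 1.48 and 1.42 CPM over both arms. With totals, the log2 ratio had a median of 0.57 over the detected smooth muscle and stromal miRs, 0.63 over those of blood, -0.65 over those of epithelium and -1.45 over those of late germ cells, where the summed level of the cluster had a log2 ratio of 0.12. With the size factors these values were 0.85, 0.91, -0.37, -1.16 and 0.40 in the same order. The part of these cells in the level of miR-221 and miR-222 was not tested.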

How the data were processed

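Small RNA-seq of 2 sperm libraries of naive WT mice was used. Reads had been quality-trimmed and freed of adapters by the authors, who dropped reads under 15 bases and mapped the rest with bowtie, first without mismatches to miR and piRNA sequences. The submitters' processing notes name cutadapt 1.8.1, Bowtie 1.1.2, HTSeq and the build mm10/GRCm38. The authors deposited whole-number read counts per mature miR for each library, without normalization. Summary entries, of which only reads assigned to no miR were above 0 (2496304 in replicate 1 and 2017799 in replicate 2), were left out of the totals.

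CPM was computed from totals of miR reads, with Wilson intervals per library. No test between conditions was possible. TMM (edgeR 4.0.16) and DESeq2 1.42.0 size factors in R 4.3.3 served as other scalings. Counting intervals of log2 ratios took reads as Poisson counts. Python 3.11.15, numpy 2.4.6, pandas 2.3.3, scipy 1.17.1 and matplotlib 3.10.9 were used, and scaling and intervals were checked on simulated data. The text names the 4 arms, miRs with their seed, the 5 nearest miRs, leading or absent list members, clustered pairs and the 3 most frequent X-linked miRs, and 3 of the clustered pairs were picked as examples after their values were seen. Members and lists were chosen with earlier results of these data known. Sequences and loci came from RefSeq and GENCODE M21.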

Additional observations from a re-analysis of the deposited data

How the results depend on the processing

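The levels depended mainly on the denominator. With all reads in the tables as the denominator, the mean level was 45.0 CPM for miR-221-3p, 6.68 for miR-221-5p, 4.83 for miR-222-3p, 0.555 for miR-222-5p and 57.1 for the 4 arms together. Without miR-10a-5p and miR-10b-5p in the denominator it was 319, 47.6, 34.2, 3.94 and 405 CPM in the same order, since these miRs hold most miR reads. The log2 ratio of replicate 2 to replicate 1 of miR-221-3p was 0.48 with TMM, 0.41 with the size factors of DESeq2 and 0.38 with all reads as the denominator, outside the counting interval of the value with totals, which alone of the scalings had an interval that included 0. The remaining 62 of 75 alternatives moved a value by less than the SD between the libraries or, for log2 ratios, by less than the counting interval. The log2 ratio of miR-221-5p changed sign with TMM (0.14), the size factors (0.08) and all reads (0.05). A library alone lies within 1 SD of the mean of 2 by construction, so those values are not a check. miR-222-5p gave no rank at a minimum of 10 reads in each library. No paired analysis was possible because the series has 1 group. Depth limits miR-222-5p and, through miR-222-3p, the ratio of the 3p arms.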
